A study of Mus musculus with 2 samples.

Results

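The nuclear genes that encode subunits of the mitochondrial respiratory chain and of ATP synthase were examined in droplet single-cell RNA sequencing of mouse liver. Symbols beginning with Nduf (followed by a, b, c, s or v), Uqcr, Cox4 to Cox8 or Atp5, and the symbols Sdha to Sdhd, matched 114 entries of the 55357 genes listed. Of these, 90 held at least 200 unique molecular identifiers (UMIs, each standing for an RNA molecule) summed over the deposited matrices and were taken as members. They comprised 37 genes of complex I, 4 of complex II, 8 of complex III, 14 of complex IV and 17 of complex V. The prefixes also took in 8 Ndufaf genes, which assemble complex I and are not subunits of it, and 2 pseudogenes, Cox7c-ps1 and Ndufa12-ps. Just inside the limit was Ndufa12-ps with 249 UMIs, and just outside it were Ndufs5-ps with 197 and Ndufb4c with 177. The other entries outside it were mostly pseudogenes and tissue isoforms such as Cox7a1 with 140, Cox4i2 with 9 and Cox8b with 1.

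There were 2 groups of fibrotic mice with 1 library each: carbon tetrachloride with IPA (CCl4+IPA), and carbon tetrachloride alone (CCl4). Carbon tetrachloride injures hepatocytes and, given repeatedly, leaves scar tissue, and IPA is indole propionic acid, a tryptophan metabolite of gut bacteria. Both groups carried the carbon tetrachloride injury, and no uninjured liver is analysed here. The doses, the strain, the age and the number of animals in each library are not given in the sources used here. With 1 library a group no difference between the libraries has a replicate check, so every comparison is between these libraries, no test was run, and intervals are 95% exact intervals that cover counting error only.

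The respiratory chain passes electrons from NADH (at complex I) and succinate (at complex II) through complex III to oxygen at complex IV, and complex V uses the proton gradient so built to make ATP. Mitochondrial DNA encodes a small set of the subunits, none of them in complex II, and the nucleus encodes the rest, which are imported and assembled with them. Some subunits, mostly of complex IV, exist as isoforms from separate genes used in different tissues. NRF1 and the ETS factor GABP, both nuclear transcription factors, are known for binding promoters of many of these nuclear genes.

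The promoters of 74 of the 90 members were found among RefSeq promoter sequences of GRCm38.p6, and the 250 bases before each annotated start were searched on both strands. A gene counted as a match if any of its promoter sequences held the motif. The NRF1 motif, GCGCA and GCGC with any base between them, was present in 14 of the 74 members (18.9%), beside 1144 of all 27025 genes with a promoter sequence (4.23%). The ETS motif CCGGAAG was present in 14 members (18.9%), beside 7.83% of all these genes. The motif AAGATGGCG of YY1 was present in 1 member, beside 0.710% of all these genes, and TATAAA, the TATA box, in 6 members (8.11%), beside 14.3%. The searched motifs do not contain each other, and a match is a description of letters in this window only. By complex, the NRF1 motif was in 6 of 33 genes of complex I, 2 of 3 of complex II, 0 of 5 of complex III, 1 of 11 of complex IV and 4 of 15 of complex V. The promoters below belong to genes whose RNA is described further on. They are Cox6a1, the widely expressed partner of an isoform that marked a single cell class, Ndufa4, whose level peaked in plasma cells, and Atp5l and Ndufb1, which lay at opposite ends of the ratios between libraries. Each is given 5′ to 3′ on the minus strand of GRCm38.p6, with motif matches in capitals, which in Cox6a1 are NRF1 matches and an ETS match, and in Atp5l an ETS and a TATA match.
Cox6a1, chr5:115348959-115349208: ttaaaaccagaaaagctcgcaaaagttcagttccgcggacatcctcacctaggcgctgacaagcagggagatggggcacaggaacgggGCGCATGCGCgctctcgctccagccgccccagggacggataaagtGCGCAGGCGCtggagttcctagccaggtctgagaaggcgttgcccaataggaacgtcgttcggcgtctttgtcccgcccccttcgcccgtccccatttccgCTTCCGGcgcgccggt
Ndufa4, chr6:11907451-11907700: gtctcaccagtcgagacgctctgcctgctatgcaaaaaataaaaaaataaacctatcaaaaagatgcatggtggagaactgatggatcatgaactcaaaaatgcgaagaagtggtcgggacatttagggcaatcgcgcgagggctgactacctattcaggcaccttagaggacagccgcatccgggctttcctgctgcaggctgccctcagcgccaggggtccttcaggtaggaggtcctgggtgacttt
Atp5l, chr9:44920743-44920992: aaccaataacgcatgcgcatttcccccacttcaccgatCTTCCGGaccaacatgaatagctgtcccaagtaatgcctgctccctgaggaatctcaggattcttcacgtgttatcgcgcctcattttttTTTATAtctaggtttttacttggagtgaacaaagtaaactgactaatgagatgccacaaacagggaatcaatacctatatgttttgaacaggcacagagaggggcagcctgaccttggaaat
Ndufb1, chr12:101975739-101975988: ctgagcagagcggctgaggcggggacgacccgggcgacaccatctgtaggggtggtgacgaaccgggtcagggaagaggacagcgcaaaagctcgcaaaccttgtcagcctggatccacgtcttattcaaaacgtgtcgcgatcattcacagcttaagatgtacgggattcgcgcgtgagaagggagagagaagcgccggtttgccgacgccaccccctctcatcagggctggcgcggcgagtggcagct
The windows of Ndufa4 and Ndufb1 held none of the 4 motifs.

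The CCl4+IPA library held 10471 barcodes with 37983923 UMIs and the CCl4 library 10427 with 45009730, at medians of 2771 and 3172 UMIs per barcode, and 23 barcodes occurred in both. After filtering, 10128 and 10016 cells were kept, of which 9148 and 8669 could be assigned to a cell type by marker genes. Members made up 581658 UMIs of the kept cells in the CCl4+IPA library and 680254 in the CCl4 library. The libraries differed most in ribosomal RNA: Rn18s-rs5, an 18S ribosomal RNA gene, took 1.17% of UMIs in CCl4+IPA cells and 7.12% in CCl4 cells, and the mitochondrial ribosomal RNAs took 0.600% and 2.27%. Levels are given as CPM, UMIs per 1000000 UMIs of the class, a scale that includes that RNA. Over the 12394 genes measured in all kept cells the median log2 ratio of CCl4+IPA over CCl4 was 0.24, and the part of ribosomal RNA in that shift was not tested. Differences between the libraries are therefore read against this median, or within the members themselves, where the scale cancels.

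In all, 8 cell classes had enough cells in both libraries to be described. Cells counted as gated were 3286 and 3866 B cells in the CCl4+IPA and CCl4 libraries, 3117 and 2436 T cells, 932 and 458 natural killer (NK) cells or type 1 innate lymphoid cells (ILC1), and 1028 and 812 neutrophils. There were 188 and 324 mononuclear phagocytes, 353 and 386 plasmacytoid dendritic cells, 65 and 69 plasma cells, and 79 and 62 mesothelial cells, the cells that line the liver surface. Each class had its own 8 markers as its highest marker list, with no marker at 0. The same lists assigned the cells, so this largely follows from the gating and gives no separate support for the class names. The own list of a class summed to between 3914 and 44744 CPM over the CCl4+IPA classes and to between 3431 and 34020 CPM over the CCl4 classes. Mesothelial cells stood apart in that the stellate cell or fibroblast list was almost as high in them as their own, at 6254 CPM in CCl4+IPA cells and 6254.5 CPM in CCl4 cells, against 6617 and 6644 CPM.

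On the CPM scale, members were abundant in mononuclear phagocytes and plasmacytoid dendritic cells and least abundant in neutrophils in both libraries. Mesothelial and plasma cells were among the highest classes on it in the CCl4 library only. The summed level of all members in mononuclear phagocytes was 21177 CPM in CCl4+IPA cells and 20198 CPM in CCl4 cells, and in plasmacytoid dendritic cells it was 19492 and 19521 CPM. T cells held 18341 CPM in the CCl4+IPA library and 16735 CPM in the CCl4 library, and NK cells or ILC1 held 17168 and 17152 CPM. Lymphocytes were not uniform, since B cells held 12399 CPM in the CCl4+IPA library and 12049 CPM in the CCl4 library, below T cells in both. Neutrophils, which are known for living mainly on glycolysis, were last in both libraries at 9694 CPM in CCl4+IPA cells and 8562 CPM in CCl4 cells. Plasma cells and mesothelial cells stood at different places in the order of each library. Plasma cells held 15021 CPM in CCl4+IPA cells and 19858 CPM in CCl4 cells, and mesothelial cells held 15639 and 20287 CPM. Both were below T cells in the CCl4+IPA library and above them in the CCl4 library. Immunoglobulin RNA took 42.4% and 31.8% of plasma cell UMIs, against 1.45% and 1.43% in B cells. It lowers plasma cell CPM, so the place of plasma cells in this order depends on counting it. In the CCl4+IPA library no neighbours in this order overlapped in their intervals. In the CCl4 library the 4 highest classes (mesothelial cells, mononuclear phagocytes, plasma cells and plasmacytoid dendritic cells) each overlapped their neighbour. These are shares of a class's RNA, and classes with a larger RNA content held more molecules per cell: 207 member UMIs per plasma cell in the CCl4+IPA library and 343 in the CCl4 library, against 31.9 and 36.6 per B cell.

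**Figure D1:**
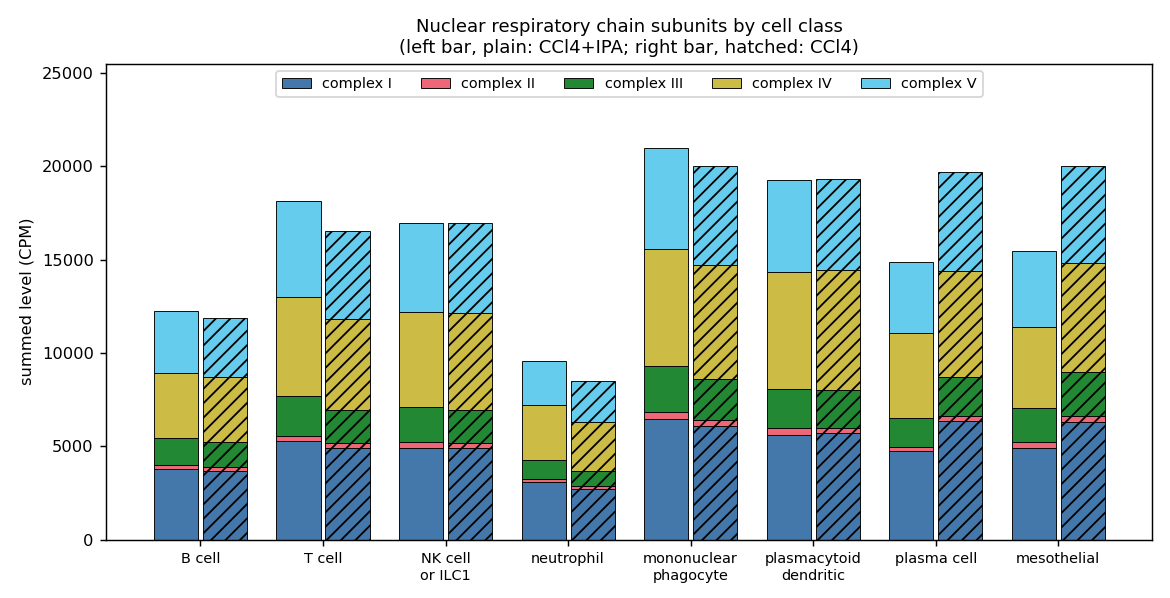
Summed level in CPM of the subunit genes of complexes I to V in each of the 8 cell classes, with the CCl4+IPA library as the plain left bar and the CCl4 library as the hatched right bar. Neutrophils are lowest in both libraries, and plasma cells and mesothelial cells are the classes where the left bar is clearly below the right.

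The proportions of the complexes varied little between classes. Complex I took between 28.7% and 31.9% of member UMIs over the 8 classes of the CCl4+IPA library, with a narrow range in CCl4 cells too, from 28.8% in NK cells or ILC1 to 32.04% in plasma cells. Complex IV took 27.8% to 32.2% in CCl4+IPA classes and 28.7% to 32.8% in CCl4 classes, and complex V 24.7% to 28.1% and 25.01% to 28.2%. Complex III took 10.1% to 11.8% and 9.20% to 11.6%, and complex II, the smallest, 1.49% to 2.10% and 1.41% to 1.77%. The highest share of complex IV in both libraries was that of plasmacytoid dendritic cells, the class with the additional isoform described below.

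Within a complex the genes differed widely in level, here given in CPM per kilobase of transcript in all kept cells. The kit counts a molecule near its 3′ end, so division by length itself changes the spread between genes. In complex IV, Cox8a, a small membrane subunit, was at 1180 CPM per kilobase in CCl4+IPA cells and 1214 in CCl4 cells, and Cox4i1, the subunit at which ATP is known to bind the complex, at 987 and 922. In complex V, Atp5e, the small epsilon subunit of the catalytic head, was at 1602 CPM per kilobase in CCl4+IPA cells and 1590 in CCl4 cells. Atp5g2, 1 of 3 genes that encode the same mature ring subunit, was at 24.1 and 18.5 CPM per kilobase, below its paralogs Atp5g1, at 51.9 and 64.1, and Atp5g3, at 292 and 252. In CPM the paralogs lay closer, with Atp5g1 at 139 and 172 and Atp5g3 at 210 and 181. In complex III, Uqcrh, the acidic hinge subunit, stood at 1490 CPM per kilobase in CCl4+IPA cells and 1290 in CCl4 cells, while Uqcrfs1, the Rieske iron-sulfur protein, stood at 72.8 and 66.3. In CPM they were less far apart, Uqcrh at 707 and 612 and Uqcrfs1 at 99.3 and 90.4. The genes of succinate dehydrogenase lay closer together on this scale. Sdha, its flavoprotein, was at 62.0 CPM per kilobase in CCl4+IPA cells and 48.5 in CCl4 cells, and Sdhb, its iron-sulfur subunit, at 65.2 and 65.5. The membrane anchors Sdhc and Sdhd were at 55.8 and 41.9 CPM per kilobase in CCl4+IPA cells and at 47.5 and 38.3 in CCl4 cells. In CPM, without division by length, these genes were further apart. Sdha was at 112 CPM and Sdhc at 45.5 CPM in CCl4+IPA cells, and at 87.8 and 38.7 CPM in CCl4 cells.

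Complex I was divided by role. Its 7 nuclear core subunits, which carry the flavin and the iron-sulfur clusters, had a median of 57.9 CPM per kilobase in CCl4+IPA cells and 54.3 in CCl4 cells. Its accessory subunits, with a length for 29 of 30, had medians of 213 and 221 CPM per kilobase. Ndufv1, the subunit that binds NADH, was lowest of the core subunits at 27.0 CPM per kilobase in CCl4+IPA cells and 29.1 in CCl4 cells, and Ndufa6, an accessory subunit, was at 716 and 667. These lengths are medians over annotated transcripts, while the kit counts a molecule near its 3′ end, so length enters these scales differently, and CPM of accessory subunits were also above those of core subunits, at medians of 129 and 128 CPM against 65.4 and 61.3 CPM.

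A few members were set apart by cell class. Cox6a2, known as the heart and skeletal muscle isoform of a complex IV subunit, was a plasmacytoid dendritic cell gene here. Its level there was 1269 CPM in CCl4+IPA cells (1221 to 1318) and 1252 CPM in CCl4 cells (1210 to 1295). The next class in both libraries was NK cells or ILC1, at 12.6 CPM in the CCl4+IPA library and 7.64 CPM in the CCl4 library. Plasmacytoid dendritic cells held 2647 of its 2835 UMIs in kept CCl4+IPA cells (93.4%) and 3388 of 3717 in kept CCl4 cells (91.1%). At least 1 UMI was seen in 86.1% of plasmacytoid dendritic cells of the CCl4+IPA library (82.1 to 89.6) and in 88.9% of those of the CCl4 library (85.3 to 91.8). Among B cells the shares were 0.396% and 0.517%, read here as background, at median depths of 2349.5 and 2776 UMIs in B cells against 6122 and 6915.5 UMIs in plasmacytoid dendritic cells. When each cell was thinned to 1000 UMIs the shares were 62.4% and 59.6% in plasmacytoid dendritic cells and 0.157% and 0.211% in B cells. Cells left without a class held another 105 UMIs in 22 cells of the CCl4+IPA library and 262 UMIs in 100 cells of the CCl4 library.

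The widely expressed partner Cox6a1 did not give way to it. Cox6a1 stood at 250 CPM in plasmacytoid dendritic cells of the CCl4+IPA library and 210 CPM in those of the CCl4 library, within its range over the other classes, which ran from 176 to 292 CPM in CCl4+IPA cells and from 146 to 421 CPM in CCl4 cells. The sum of both isoforms in plasmacytoid dendritic cells was thus mostly Cox6a2. Cox6a1 is the gene printed above with NRF1 motifs in its promoter. Of the other isoform pairs, Cox6b2, known from testis, was low: 27.1 CPM in mononuclear phagocytes and 24.2 CPM in mesothelial cells of the CCl4+IPA library, against 13.4 and 36.5 CPM in the CCl4 library, with at most 44 UMIs behind a value. Its partner Cox6b1 was at 331 CPM in all CCl4+IPA cells and 346 CPM in all CCl4 cells. Cox4i1 exceeded Cox4i2 by 26404 UMIs to 2 in CCl4+IPA cells and 29477 to 7 in CCl4 cells. Cox8a was the only Cox8 gene among the members.

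**Figure D2:**
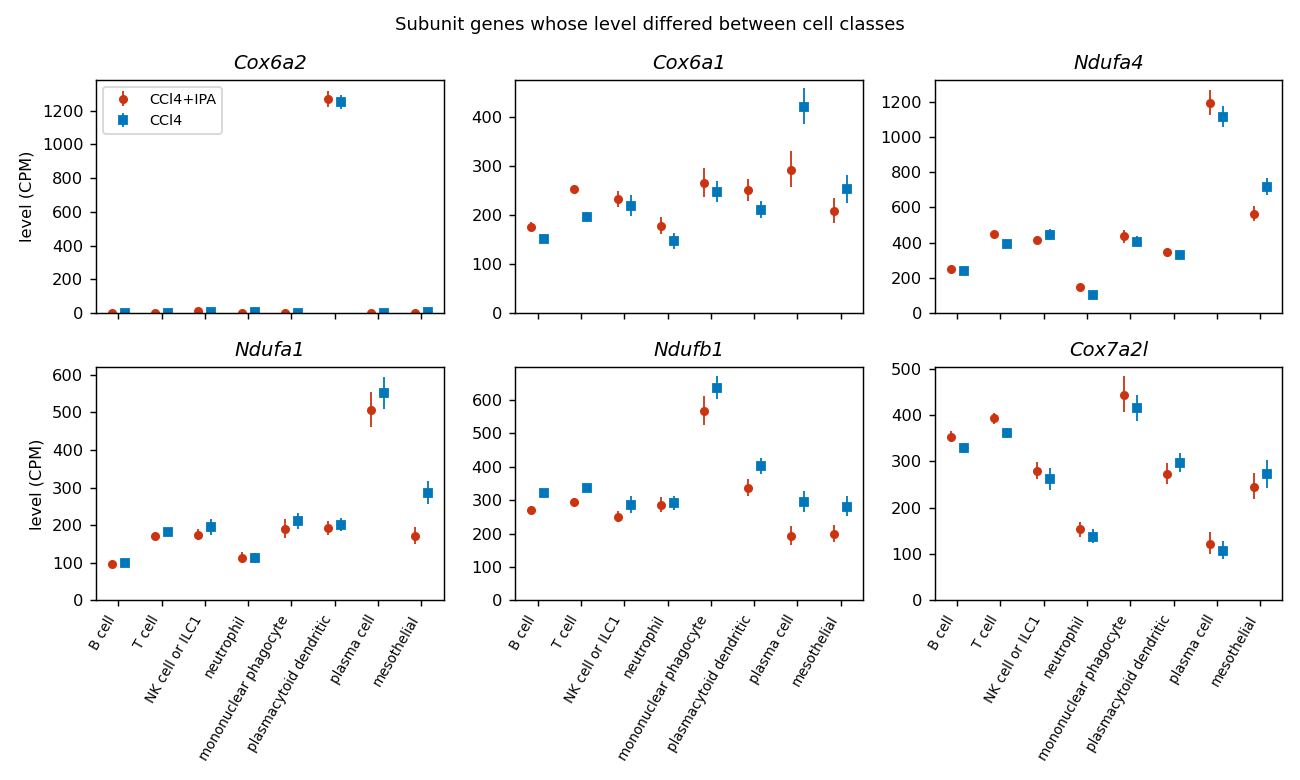
Level in CPM of 6 subunit genes in the 8 cell classes, with circles for the CCl4+IPA library, squares for the CCl4 library and bars for exact 95% Poisson intervals. Cox6a2 is near 1260 CPM in plasmacytoid dendritic cells and under 13 CPM elsewhere, and Ndufa4 and Ndufa1 are highest in plasma cells in both libraries.

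Plasma cells, which secrete antibody, carried 2 members well above the other classes. Ndufa4, now counted as a subunit of complex IV despite its name, was at 1193 CPM in CCl4+IPA plasma cells (1122 to 1266) and 1116 CPM in CCl4 plasma cells (1056 to 1177). Mesothelial cells came next with 562 and 716 CPM, and neutrophils were lowest with 149 and 102 CPM. Ndufa1, a small membrane subunit of complex I encoded on the X chromosome, was at 506 CPM in CCl4+IPA plasma cells and 551 CPM in CCl4 plasma cells. No other class exceeded 193 CPM in the CCl4+IPA library or 285 CPM in the CCl4 library for it, and B cells were lowest at 98.0 and 101 CPM. Cox7a2l, a factor that joins complexes III and IV into supercomplexes, was by contrast lowest in plasma cells on this scale. There it was at 123 CPM in the CCl4+IPA library and 107 CPM in the CCl4 library. In mononuclear phagocytes it was at 444 and 415 CPM. Immunoglobulin RNA took 42.4% of UMIs in CCl4+IPA plasma cells and 31.8% in CCl4 plasma cells, which lowers every plasma cell CPM. The lowest rank of Cox7a2l therefore rests on this scale. That RNA lowers all members alike, so the values for plasma cells are still not a plain shift of all members.

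Ndufb1, an accessory subunit of complex I, was highest in mononuclear phagocytes at 566 CPM in CCl4+IPA cells and 636 CPM in CCl4 cells, and plasmacytoid dendritic cells came next with 336 and 402 CPM. Cox4i1 peaked in the same class at 1197 and 1113 CPM. Ndufaf7, an enzyme that methylates a core subunit during assembly of complex I, was at 43.2 CPM in mononuclear phagocytes of the CCl4+IPA library and 43.3 CPM in those of the CCl4 library, against 11.8 and 10.8 CPM in B cells. Uqcr11, a small subunit of complex III, was highest in mesothelial cells at 324 and 449 CPM, although plasmacytoid dendritic cells at 307 CPM overlapped it in the CCl4+IPA library. Ndufa12-ps was highest in neutrophils, at 11.2 CPM in CCl4+IPA cells and 6.58 CPM in CCl4 cells. It shares sequence with Ndufa12, and the sources used here do not say how reads were divided between the copies. The values of Ndufa12-ps, of Ndufa12 in neutrophils and of Cox7c-ps1 are therefore uncertain.

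**Figure D3:**
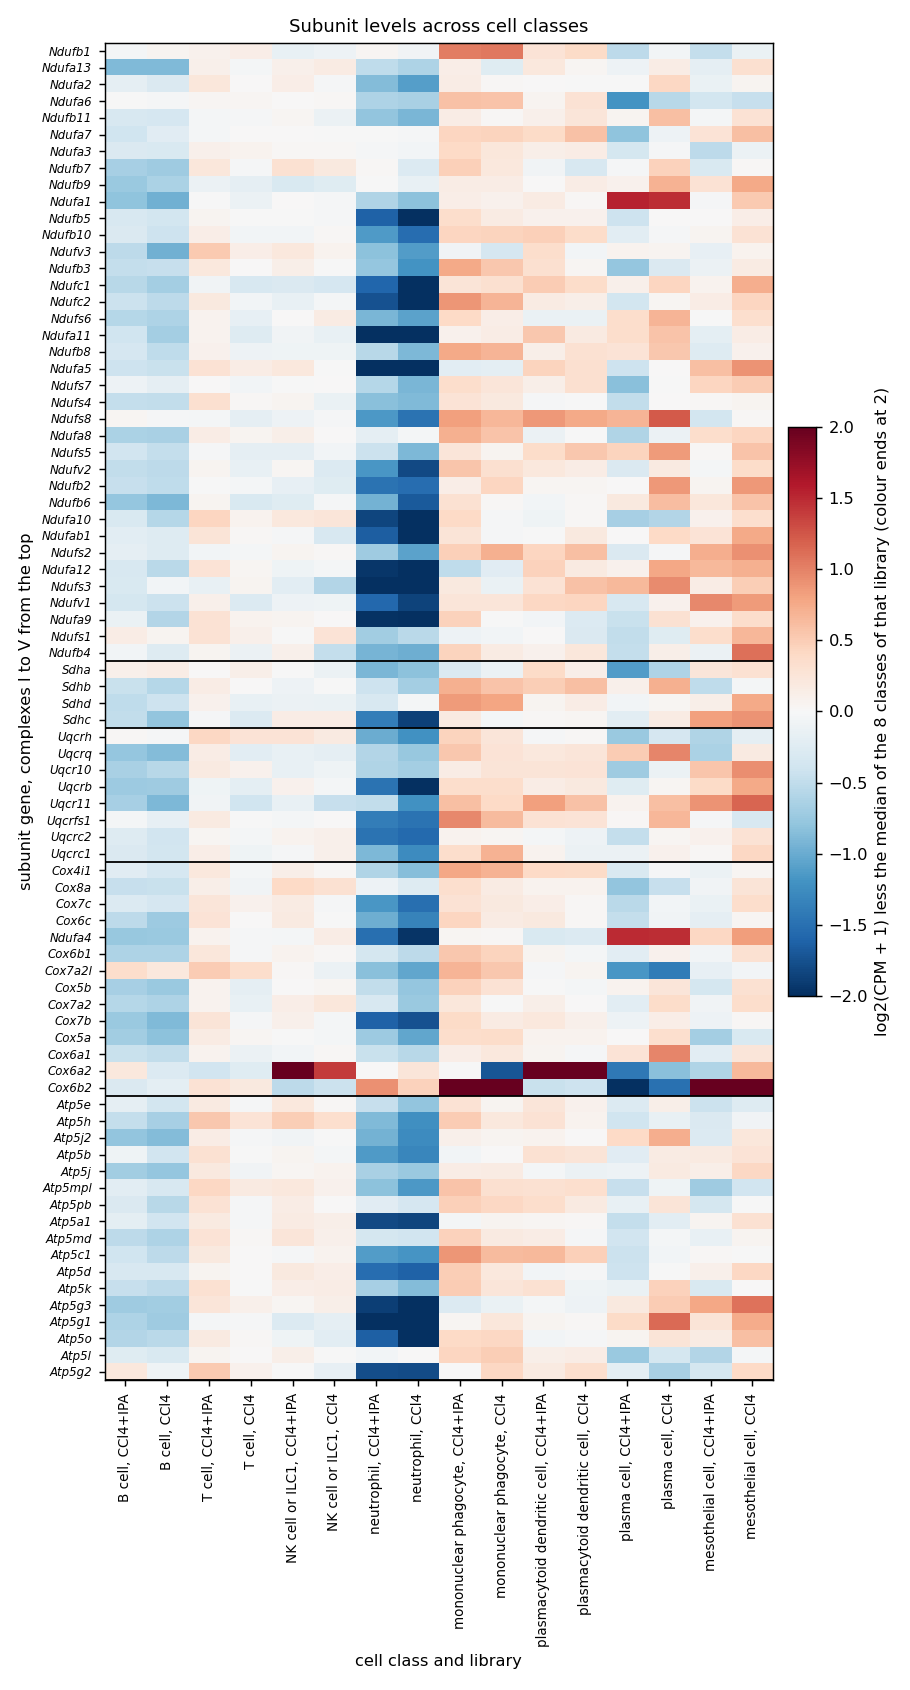
Level of each of the 80 subunit genes across the 8 classes of both libraries, as log2(CPM + 1) less the gene's median over the 8 classes of that library, with complexes I to V from the top and colours ending at 2 in either direction. Neutrophil columns are mostly blue, and single red cells pick out Cox6a2 in plasmacytoid dendritic cells and Ndufa4 and Ndufa1 in plasma cells.

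Neutrophils had the lowest level of the 8 classes for 51 of the 80 subunits in the CCl4+IPA library and for 61 in the CCl4 library, and 51 were shared. B cells were lowest for 14 and 13. Mononuclear phagocytes had the highest level for 42 subunits in the CCl4+IPA library and 23 in the CCl4 library, while mesothelial cells had it for 14 and 29, and plasma cells for 7 and 22. Ranks of plasma cells, and so these counts, rest on a scale that includes their immunoglobulin RNA. Neither these counts nor the ratios to T cells below were made over all genes. Whether subunits were lower in neutrophils than genes in general is therefore not known here. Ribosomal protein genes, for one, took 4.09% and 3.48% of neutrophil UMIs in the CCl4+IPA and CCl4 libraries, against 21.0% and 22.7% in T cells. Relative to T cells, the median subunit in neutrophils was at 0.488 of the T cell CPM in the CCl4+IPA library and 0.448 in the CCl4 library, over the 78 subunits measured. The median was 0.412 and 0.413 for complex V, 0.431 and 0.396 for complex III, 0.492 and 0.459 for complex I, 0.570 and 0.570 for complex IV and 0.598 and 0.568 for complex II.

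The difference of neutrophils from T cells was uneven from gene to gene. In both libraries 7 subunits were below 0.25 of the T cell level and 9 were above 0.8, with no such count over all genes to set beside them. Ndufa5, an accessory subunit of the peripheral arm of complex I, was at 15.5 CPM in neutrophils against 110 CPM in T cells of the CCl4+IPA library, and at 7.40 against 115 CPM in the CCl4 library. Ndufa9, Ndufa10, Ndufa11, Ndufa12 and the core subunit Ndufs3 were also below 0.25 in both, as was Atp5g3, with 59.0 CPM in neutrophils and 261 CPM in T cells of the CCl4+IPA library and 46.9 and 214 CPM in the CCl4 library. Ndufa12 and Ndufa12-ps had 42 UMIs each in neutrophils over both libraries, so the place of Ndufa12 depends on how reads were divided. Ndufb9, an accessory subunit of the membrane arm, was at 222 CPM in neutrophils and 205 CPM in T cells of the CCl4+IPA library, and at 178 and 174 CPM in the CCl4 library. Ndufa7 was at 1.02 and 0.978 of the T cell level, Ndufa3 at 0.907 and 0.917, and Cox8a at 0.854 and 0.882. Neutrophils had few mitochondrially encoded transcripts too: 1 UMI of those 13 subunits stood against 4.01 member UMIs in CCl4+IPA neutrophils and 5.72 in CCl4 neutrophils, while in T cells the figures were 1.51 and 1.59 and in B cells 0.820 and 0.883.

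Between the libraries, members did not move together in all classes. In all kept cells their summed level was 16201 CPM in the CCl4+IPA library and 15860 CPM in the CCl4 library, a ratio of 1.02 (1.02 to 1.03) that became a log2 ratio of -0.21 once the median of all measured genes was subtracted. Of the 90 members, 51 had a ratio above 1, beside 77.9% of all measured genes, and their median log2 ratio was 0.03, beside 0.24. In B cells 61 of 90 were above 1, beside 82.0% of genes, in T cells 72 of 90, beside 85.1%, and in NK cells or ILC1 42 of 88, beside 74.0%. In mononuclear phagocytes the count was 56 of 87, beside 65.9%, and in plasmacytoid dendritic cells 47 of 88, beside 67.9%. The share in mononuclear phagocytes was close to that of genes in general, and the others were below it. Neutrophils differed in that 67 of 82 measured members were above 1, beside 72.1% of genes, with a median log2 ratio of 0.26, beside 0.19.

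Plasma cells and mesothelial cells formed the other pole, with nearly all members at a lower level in the CCl4+IPA library. In plasma cells 77 of 83 measured members were lower, beside 53.0% of genes and 68.6% of those at 100 CPM or more, 57 were at 0.8 or less of the CCl4 level, beside 31.6%, and 6 were higher, beside 47.0%. In mesothelial cells 80 of 85 were lower, beside 44.8% of genes and 52.0% of those at 100 CPM or more, 52 were at 0.8 or less, beside 20.1%, and 5 were higher, beside 55.2%. The summed level was 1.32-fold lower in CCl4+IPA plasma cells (1.29 to 1.35) and 1.30-fold lower in CCl4+IPA mesothelial cells (1.27 to 1.32). The log2 ratio was -0.40 in plasma cells and -0.38 in mesothelial cells. It lay below 0 under all other settings run, between -0.15 and -0.56 in plasma cells and between -0.32 and -0.48 in mesothelial cells. These values rest on 65 and 69 plasma cells and on 79 and 62 mesothelial cells.

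In plasma cells all 5 complexes were lower in the CCl4+IPA library. Complex V was at 3818 CPM in CCl4+IPA plasma cells and 5299 CPM in CCl4 plasma cells, 1.39-fold lower (1.33 to 1.45), complex I 1.35-fold lower (1.30 to 1.40) and complex IV was at 4568 and 5708 CPM, 1.2496-fold lower (1.20 to 1.30). Ndufa9 was at 26.8 CPM in CCl4+IPA plasma cells and 57.0 CPM in CCl4 plasma cells, 2.13-fold lower (1.32 to 3.55). Atp5g1 was at 207 and 398 CPM, 1.92-fold lower (1.62 to 2.29). The highest ratios were those of Cox7a2l, at 123 and 107 CPM (1.14, 0.878 to 1.49), and Ndufa4, at 1193 and 1116 CPM (1.07, 0.985 to 1.16), both with intervals that include 1. Immunoglobulin RNA took 42.4% of UMIs in CCl4+IPA plasma cells and 31.8% in CCl4 plasma cells. With immunoglobulin UMIs left out of the scale the summed log2 ratio was -0.16 and 18 members were higher.

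In mesothelial cells complex IV was at 4345 CPM in the CCl4+IPA library and 5835 CPM in the CCl4 library, 1.34-fold lower (1.30 to 1.39), and all 13 of its measured genes and all 17 genes of complex V were lower. The sum of complex II was the exception, at 329 and 345 CPM, 1.05-fold lower with an interval (0.913 to 1.20) that includes no difference. Of its 4 genes, 3 were lower and only Sdha was higher. Sdha held 173 of the 422 complex II UMIs in CCl4+IPA mesothelial cells and 130 of the 416 in CCl4 mesothelial cells. Ndufb4, an accessory subunit of complex I, was at 32.0 CPM in CCl4+IPA cells and 60.5 CPM in CCl4 cells, 1.89-fold lower (1.27 to 2.85), and Ndufb2 at 78.8 and 140 CPM, 1.78-fold lower (1.38 to 2.30). Uqcrfs1 at 91.2 and 72.1 CPM and Sdha at 135 and 108 CPM had the highest ratios, 1.26 (0.950 to 1.69) and 1.251 (0.991 to 1.58), with intervals that include 1. Other RNA of these cells differed more: Fos, an immediate early gene, was at 5129 CPM in CCl4+IPA mesothelial cells and 1738 CPM in CCl4 mesothelial cells, Egr1 at 2899 and 722 CPM, and the galectin gene Lgals1 at 109 and 1383 CPM. Their part in the difference of the members was not tested.

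Transcript length moved with the ratio between libraries among other genes at 100 CPM or more in all kept cells and in every class but neutrophils. In those classes the rank correlation ran from 0.31 in mononuclear phagocytes to 0.42 in B cells. In neutrophils it was 0.012, and other short genes had a median log2 ratio of 0.16 and longer ones 0.14. Among the members themselves the rank correlation with length across 87 genes, which are not independent replicates, was 0.061 in all kept cells. In mesothelial cells the median log2 ratio was -0.42 for the 31 members under 600 bases and -0.33 for the 53 longer ones. Other genes at 100 CPM or more had medians of -0.29 under 600 bases (102 genes) and 0.01 above (1478 genes). In plasma cells it was -0.46 for short and -0.42 for longer members, against -0.42 for other short genes at that level and -0.20 for longer ones. In all kept cells short members were at -0.01 and other short genes at that level at -0.01, while longer members were at 0.06 and longer other genes at 0.21. Longer members therefore lay below longer genes in general in these 3 comparisons, and short members lay close to other short genes except in mesothelial cells. What links length to the ratio was not tested.

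**Figure D4:**
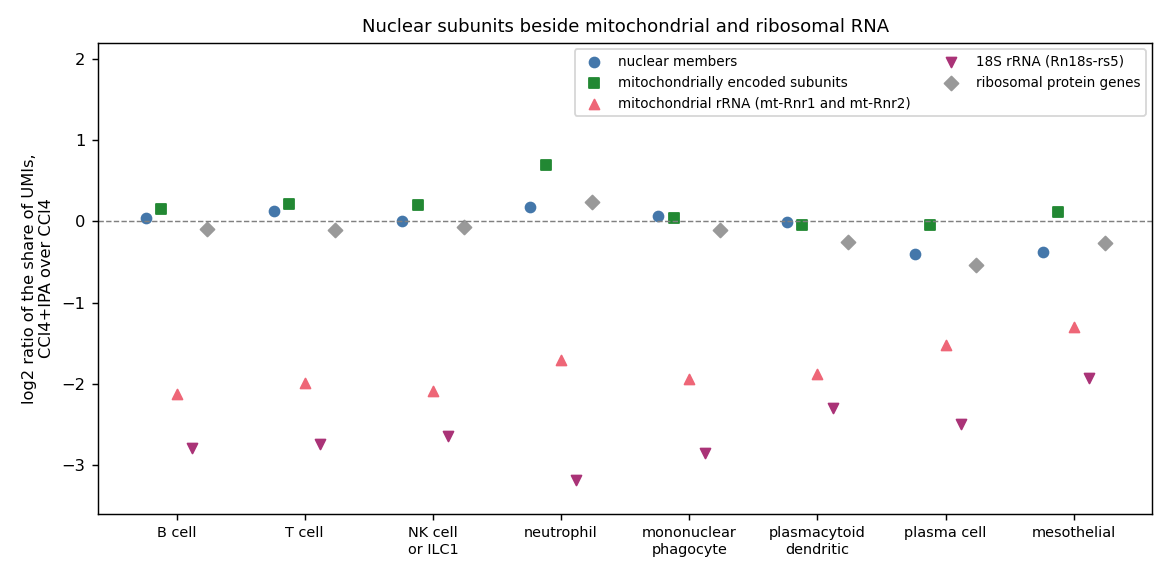
log2 ratio of CCl4+IPA over CCl4 for the share of UMIs taken by nuclear members, the 13 mitochondrially encoded subunits, mitochondrial ribosomal RNA, 18S ribosomal RNA and ribosomal protein genes in each class. Both kinds of ribosomal RNA lie far below 0 in every class. Nuclear members part most from mitochondrially encoded subunits in neutrophils, plasma cells and mesothelial cells, and by less in NK cells or ILC1.

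The mitochondrially encoded subunits did not follow the nuclear ones in these classes when summed. They summed to 14386 CPM in CCl4+IPA mesothelial cells and 13273 CPM in CCl4 mesothelial cells, a ratio of 1.08 (1.06 to 1.11). In plasma cells they summed to 7017 and 7255 CPM, a ratio of 0.967 (0.936 to 0.999). Member UMIs per mitochondrially encoded subunit UMI were 1.09 in CCl4+IPA mesothelial cells and 1.53 in CCl4 mesothelial cells, and 2.14 and 2.74 in plasma cells. That quotient does not depend on the total of the class. Gene by gene, 6 of 13 mitochondrial subunits were higher in mesothelial cells, with a median log2 ratio of -0.05, beside 0.06 for all measured genes. In plasma cells 4 were higher and 9 lower, with a median of -0.27, beside -0.04. Most of these genes in plasma cells thus had the direction of the nuclear members, which the sum does not show. The quotient was also lower in the CCl4+IPA library in NK cells or ILC1, at 1.69 and 1.95. It was lower by less in B cells, at 0.820 and 0.883, and in T cells, at 1.51 and 1.59. It was slightly higher in that library in plasmacytoid dendritic cells, at 1.51 and 1.47, and in mononuclear phagocytes, at 2.54 and 2.50. In neutrophils mitochondrially encoded subunits were 1.62-fold higher in CCl4+IPA cells (1.55 to 1.68), and the quotient was 4.01 in CCl4+IPA cells and 5.72 in CCl4 cells.

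Within the members, the share of each complex can be compared between the libraries independently of the scale. Complex II took 1.75% of member UMIs in CCl4+IPA cells and 1.57% in CCl4 cells, and its share was higher in the CCl4+IPA library in 8 of 8 classes. Complex III took 11.4% and 10.7%, with a higher share in 7 of 8 classes. These counts carry no interval and include near ties. Complex III took 11.65% and 11.64% in mesothelial cells, counted as higher, and 10.39% and 10.41% in plasma cells, counted as lower. Complex II took 1.81% and 1.77% in neutrophils. The shares do not stand for every gene of a complex. In all kept cells 5 of the 8 complex III genes had a ratio above 1, beside 77.9% of genes. Uqcrh was at 707 CPM in CCl4+IPA cells and 612 CPM in CCl4 cells, and Uqcrq at 309 and 247 CPM. Uqcrb was at 190 and 206 CPM, and Uqcr11 at 173 and 184 CPM. In complex II, Sdha was at 112 and 87.8 CPM, and Sdhb at 74.5 and 74.8 CPM. Sdha and Sdhc had a ratio above that of the summed members in 8 classes and Sdhd in 6. Sdhb was above it in 3 classes and below it in 5. Complex IV took 29.0% and 29.5%, with a lower share in 7 of 8 classes. Complexes I and V were split, each with a higher share in 3 classes and a lower share in 5.

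Read gene by gene in the same way, 14 of the 80 members measured in all 8 classes were always above or always below the summed members. No such count over all genes was made to set beside these counts across classes. The classes also come from the same libraries, so their agreement is not independent. Sdha, Sdhc, Uqcrh, Cox4i1, Atp5a1, Atp5h and Atp5l had a ratio above that of the summed members in every class. Sdha took 6.93 of every 1000 member UMIs in CCl4+IPA cells and 5.54 in CCl4 cells, and in the classes its excess over the summed members ran from 0.12 in neutrophils to 0.70 in mesothelial cells on the log2 scale. Atp5l, subunit g of the membrane part of ATP synthase, took 9.75 and 7.82 of every 1000, and Uqcrh 43.6 and 38.6. Atp5a1, the alpha subunit of the catalytic head, took 18.7 and 15.7. Cox6b1, Cox6c, Cox7b, Cox7c, Cox8a, Atp5md and Ndufb1 had a ratio below that of the summed members in every class. Ndufb1 took 17.99 of every 1000 member UMIs in CCl4+IPA cells and 22.3 in CCl4 cells, and Cox7b 14.7 and 17.1. Ndufb1 and Cox7b were also the only members with a lower CPM in all 8 classes, and no member had a higher CPM in all 8. Of these lower genes 5 of 7 encode subunits of complex IV, which has 12 of the 80 genes and also holds Cox4i1 in the opposite set.

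In all kept cells the highest ratios between libraries belonged to Atp5g2, Sdha, Atp5l and the assembly factor Ndufaf5. Atp5g2 was at 16.5 CPM in CCl4+IPA cells and 12.7 CPM in CCl4 cells, a ratio of 1.30 (1.16 to 1.47), and Sdha at 112 and 87.8 CPM, a ratio of 1.28 (1.22 to 1.34). Atp5l was at 158 and 124 CPM, a ratio of 1.27 (1.23 to 1.32), and Ndufaf5 at 7.74 and 6.16 CPM, a ratio of 1.26 (1.06 to 1.49). The lowest was Atp5g1, at 139 CPM in CCl4+IPA cells and 172 CPM in CCl4 cells, 1.23-fold lower (1.19 to 1.28). Ndufb1 followed at 292 and 354 CPM, 1.21-fold lower (1.18 to 1.24), then Cox6b2, 1.18-fold lower (0.979 to 1.42), and the assembly factor Ndufaf2, 1.16-fold lower (1.04 to 1.30). The ring subunit genes thus parted, with Atp5g3 at 210 CPM in CCl4+IPA cells and 181 CPM in CCl4 cells.

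Single classes added a few members with larger ratios, read beside a median of all genes between 0.17 and 0.29 on the log2 scale in each of these classes but mesothelial cells, where it was 0.06. In T cells Uqcrq, a small subunit of complex III near the quinone site, was at 355 CPM in the CCl4+IPA library and 242 CPM in the CCl4 library, a ratio of 1.47 (1.40 to 1.54). In mononuclear phagocytes Uqcrq was at 467.5 and 340 CPM, a ratio of 1.37 (1.23 to 1.54), and in mesothelial cells at 207 and 317 CPM, 1.53-fold lower (1.31 to 1.80). In plasmacytoid dendritic cells Sdha was at 150 and 94.6 CPM, a ratio of 1.58 (1.34 to 1.87). Ndufb4 was higher in CCl4+IPA NK cells or ILC1, at 37.3 CPM against 19.7 CPM in CCl4 cells, a ratio of 1.90 (1.30 to 2.83), and in B cells, at 33.3 and 23.1 CPM, a ratio of 1.44 (1.21 to 1.70). It is the gene with the lowest ratio in mesothelial cells. In neutrophils the assembly factor Ndufaf3 was at 25.4 and 10.7 CPM, a ratio of 2.38 (1.47 to 3.93), on 59 and 26 UMIs, and Ndufb6 at 45.6 and 27.6 CPM, a ratio of 1.66 (1.21 to 2.28).

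Other genes of mitochondrial energy metabolism were counted from lists. In T cells all 17 tricarboxylic acid cycle genes had a ratio above 1, with a median log2 ratio of 0.27, beside 0.29 for all measured genes, and so had all 13 genes for electron carriers, ADP exchange and phosphate import, with a median of 0.18. Of all measured genes in T cells, 85.1% were above 1, so these counts are near the background. In plasma cells 2 of 17 cycle genes were higher and 15 lower, with a median of -0.55, beside -0.04 for all measured genes, of which 47.0% were higher. Fh1, fumarate hydratase, was at 8.92 CPM in CCl4+IPA plasma cells and 22.6 CPM in CCl4 plasma cells. The carrier list there had 2 of 13 higher, with Cyc1, the cytochrome c1 of complex III, at 36.8 and 80.5 CPM, and glycolysis genes 2 of 13 higher, with Gapdh at 353 and 640 CPM. In mesothelial cells 8 of 17 cycle genes were higher, with a median of -0.05, beside 0.06 for all genes, of which 55.2% were higher, while 3 of 13 carrier genes and 3 of 15 glycolysis genes were higher. In neutrophils 11 of 13 measured cycle genes were higher and 4 of 15 glycolysis genes, with medians of 0.29 and -0.13, beside 0.19 for all genes, of which 72.1% were higher. Assembly factors other than Ndufaf genes had 28 of 39 higher in all kept cells, a share below the 77.9% of all measured genes, with a median of 0.11, beside 0.24. Regulators of mitochondrial biogenesis had 10 of 11 higher in all kept cells, at a median of 0.24 equal to that of all genes, with Nrf1 at 63.8 CPM in CCl4+IPA cells and 40.0 CPM in CCl4 cells.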

How the data were processed

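Liver was digested with collagenase, red cells were lysed, and 3′ libraries were prepared with 10x Genomics V3 chemistry, per the labels' protocols. The authors deposited 1 matrix a library of whole UMI counts without normalisation, from Cell Ranger 7.1.0, per the file headers. The submitters' processing notes name the build mm9. Barcodes with at least 500 UMIs, 300 genes and under 20% mitochondrial UMIs were kept, 10459 of 10471 in the CCl4+IPA library and 10294 of 10427 in the CCl4 library, and 331 and 278 of these that Scrublet called doublets were left out. A cell took the class of the marker list (15 lists of 8 genes, none a member) with most markers detected, if at least 2 and at least 2 more than in any other list. Classes with 50 cells in each library were described. UMIs were summed by class and scaled to CPM. A member counted as measured at 20 UMIs over both libraries. CPM has exact Poisson, ratios exact conditional binomial and shares exact Clopper-Pearson intervals. A 0 was set at 3 UMIs to bound a fold. Named genes are the extremes of each complex, the 8 members most particular to a class, the extreme ratios of each class and the isoforms of a subunit; Cox6a1, Ndufa5, Ndufb9 and the genes given beside mesothelial cells were chosen after their values were seen. Transcript lengths are GENCODE vM21 medians, with 87 of 90 members matched. Computation used scanpy 1.11.5, pandas 2.3.3, scipy 1.17.1 and numpy 2.4.6 in Python 3.11.15, and intervals were tested on simulated data. The members and lists were chosen with earlier results of these data known.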

Additional observations from a re-analysis of the deposited data

Results flagged for a closer look

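The summed members differed in direction between classes: the log2 ratio of CCl4+IPA over CCl4 was 0.13 in T cells and 0.18 in neutrophils, but -0.40 in plasma cells and -0.38 in mesothelial cells. With 1 library a group this difference between classes was not tested. The directions in T cells and neutrophils turned, to -0.16 and -0.013, when the median of all measured genes was subtracted, and those in plasma cells and mesothelial cells did not turn.

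Among the genes under the limit of 200 UMIs, 2 tissue isoforms still gave a signal. Cox7a1, the heart and muscle isoform of a complex IV subunit, had 137 UMIs in kept cells, 63 in the CCl4+IPA library and 74 in the CCl4 library, spread over several classes. Ndufa4l2, a hypoxia-regulated relative of Ndufa4, had 93 UMIs, 7 in the CCl4+IPA library and 86 in the CCl4 library. Of these, 4 and 53 lay in cells gated as stellate cell or fibroblast, of which there were 8 and 25.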

How the results depend on the processing

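Results with 1 library a group could not be run without a replicate, and no paired analysis was possible because each group has 1 library. Most directions depended on the scale, and fewer values moved with the gates and filters. The settings that subtract the median of genes at 100 CPM or more, or leave immunoglobulin UMIs out, were chosen after seeing the data. Where a value moved, the cause was not tested beyond the construction of the setting. Plasma and mesothelial values are limited by their number of cells, fewer than 80 a library, and neutrophil values by depth, at medians of 1736.5 and 2293.5 UMIs per cell.

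The log2 ratio of summed members is given first as reported, then less the median of all measured genes, less the median of genes at 100 CPM or more, and scaled without mitochondrial, ribosomal protein and ribosomal RNA UMIs. It was 0.03, -0.21, -0.14 and -0.15 in all kept cells, 0.04, -0.23, -0.17 and -0.17 in B cells, 0.13, -0.16, -0.086 and -0.085 in T cells, and 0.00, -0.23, -0.15 and -0.17 in NK cells or ILC1. It was 0.18, -0.013, 0.037 and 0.089 in neutrophils, 0.07, -0.10, -0.088 and -0.083 in mononuclear phagocytes, and -0.00, -0.18, -0.13 and -0.17 in plasmacytoid dendritic cells. It was -0.40, -0.37, -0.15 and -0.56 in plasma cells, and in mesothelial cells -0.38, with -0.43 for the all-gene median and -0.48 for the last scale. As a mean over cells it was -0.012 in all kept cells, 0.022 in B cells, 0.079 in T cells, 0.047 in NK cells or ILC1, 0.090 in neutrophils and -0.32 in mesothelial cells. With 3 markers required it was -0.023 in NK cells or ILC1, 0.10 in neutrophils and 0.10 in mononuclear phagocytes. With mitochondrial UMIs under 10% it was 0.025 in all kept cells. In plasma cells it was -0.36 with doublets kept and -0.16 without immunoglobulin UMIs.

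In all kept cells, in the same order of 4 scales, complex I was at 0.01, -0.23, -0.17 and -0.17, complex II at 0.19, -0.048, 0.019 and 0.012, complex III at 0.12, -0.12, -0.054 and -0.060, complex IV at 0.01, -0.23, -0.17 and -0.17, and complex V at 0.04, -0.20, -0.14 and -0.14. As a mean over cells complexes I, III, IV and V were at -0.033, 0.080, -0.043 and -0.0070.

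The count of members with a ratio above 1, in that order of scales, was 51, 8, 14 and 13 in all kept cells, 61, 13, 15 and 15 in B cells, 72, 15, 27 and 27 in T cells, and 42, 12, 20 and 19 in NK cells or ILC1. It was 56, 31, 31 and 32 in mononuclear phagocytes and 47, 12, 18 and 12 in plasmacytoid dendritic cells. In plasma cells it was 6 as reported, 18 less the median of genes at 100 CPM or more, 18 without immunoglobulin UMIs and 3 on the last scale.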

Other observations

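Barcodes gated as hepatocytes, the parenchymal cells of the liver, were too few to describe, at 15 in the CCl4+IPA library and 7 in the CCl4 library. They carried the highest member levels of any gate: 56360 CPM in CCl4+IPA barcodes (55204 to 57535) and 61236 CPM in CCl4 barcodes (58658 to 63898). Uqcrq led among their members with 3041 CPM in CCl4+IPA barcodes and 3174 CPM in CCl4 barcodes. Against 9027 and 2122 member UMIs they held 33 and 5 UMIs of the mitochondrially encoded subunits, and 7 of the 15 and 4 of the 7 had no mitochondrial UMI. Conventional dendritic cells, 40 in the CCl4+IPA library and 172 in the CCl4 library, held 17975 and 16606 CPM of members.

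Among the mitochondrially encoded subunits, mt-Nd3, a core subunit of complex I, was at 1.23 CPM in kept CCl4+IPA cells and 58.4 CPM in kept CCl4 cells, 47.7-fold lower (35.4 to 65.8). mt-Atp8 was at 136 and 347 CPM, 2.55-fold lower (2.47 to 2.64). mt-Cytb was at 3408 and 2768 CPM and mt-Nd1 at 1974 and 1531 CPM. In T cells mt-Nd3 was 64.6-fold lower in the CCl4+IPA library (35.9 to 130). Lars2, a nuclear gene for a mitochondrial tRNA synthetase, was at 312 and 1382 CPM in kept cells.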
